A study of Triticum aestivum with 96 samples.

Results

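The genes described here are those whose signal was higher in the Norstar than in the Manitou background of wheat at every duration of cold treatment and in both growth habits. They were chosen on their measured values. Probe sets that are Affymetrix controls or whose names end in _x_at or _s_at, which mark probes that may bind transcripts of several genes, were left out. Probe sets were kept where the mean log2 signal was 7 or more in at least 1 of the 32 combinations of line and day, which left 19149 of 61179. Each of these was scored by the smallest of its 16 Norstar minus Manitou differences (2 habits by 8 durations), and the 150 with the highest score are the members. The Norstar minus Manitou difference of the members is therefore a description with no test. The same rule turned round found 83 probe sets that were at least as far above in Manitou as the last member was in Norstar.

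Crowns were sampled from 4 near isogenic lines of hexaploid wheat: winter Norstar, spring Norstar, winter Manitou and spring Manitou. Winter Norstar (vrn-A1) and spring Manitou (Vrn-A1) are the parent cultivars. Repeated backcrossing, with selection by habit, put the spring allele into Norstar to give spring Norstar and the winter allele into Manitou to give winter Manitou. Plants were untreated (0 days) or held at 6 °C for 2, 14, 21, 35, 42, 56 or 70 days. Each of the 32 groups had 3 biological replicates, each a pool of 25 crowns hybridized to its own Affymetrix Wheat GeneChip, so that each background had 48 arrays. Because crowns are a mixed tissue, fewer cells of a type and less RNA per cell cannot be told apart. Each background is a single cultivar with its own near isogenic line, so a difference between backgrounds compares 2 cultivars.

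The crown is the compressed stem base that holds the shoot apical meristem, and its survival decides whether a winter cereal regrows after freezing. Vrn-A1 encodes a MADS-box transcription factor that promotes flowering, and the recessive winter allele delays its expression until a long cold period has passed. Cold-regulated genes of cereals are driven in part by CBF factors at the Fr-2 locus, which in these lines goes with the background and not with the exchanged Vrn-A1 allele. A gene that is higher in Norstar in both habits follows the background and not the exchange.

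The deposited log2 values ran from 1.92 to 14.73, and array medians lay between 5.66 and 5.78. Arrays of a group correlated with r of 0.972 to 0.996 across probe sets (genes are not independent replicates). At 0 days the probe set of Vrn-A1 followed habit and not background. It read 5.14 to 5.61 in winter and 9.33 to 9.58 in spring Norstar arrays, and 4.38 to 5.97 in winter and 9.47 to 9.78 in spring Manitou arrays. Leaf genes were present in the crown tissue of both backgrounds, with a median over 15 probe sets of 10.48 in Norstar and 10.60 in Manitou. Genes of dividing cells (histones H3 and H4 and cyclins, 28 probe sets) had medians of 12.13 in Norstar and 11.97 in Manitou. No member was on either list, and 0 probe sets were named for seed storage, floral organ or root genes.

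Of the 96 arrays, 2 stood apart on the members. Each array was placed between the Manitou median (0%) and the Norstar median (100%) of each member on the log2 scale, and the median over the 150 members was taken. The 48 Norstar arrays lay between 96.7% and 104%. The other 46 Manitou arrays lay between -2.70% and 1.61%. Replicate 2 of winter Manitou at 14 days lay at 26.1%, and replicate 1 of spring Manitou at 2 days lay at 18.8%. On the linear scale this placed them 8.29% (quartiles 6.12% and 10.4%) and 4.81% (quartiles 2.92% and 6.91%) of the way to the Norstar median. The array of winter Manitou at 14 days was the highest of the 48 Manitou arrays for 103 of the 150 members, and that of spring Manitou at 2 days for 15. For the 83 probe sets that were higher in Manitou, where 100% is the Manitou median, the 2 arrays lay at 96.5% and 94.6%, inside the 94.1% to 109% of the other Manitou arrays. An equal shift on the linear scale moves a bright signal less on the log2 scale than a dim one. The positions on these 83 probe sets therefore cannot tell whether only the members moved. What sets the 2 arrays apart was not tested. Below, most counts of members called and some values that rest on the 2 arrays are given with and without them. Other values at winter 14 days and spring 2 days, and changes that use these groups, are given with them only.

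**Figure D1:**
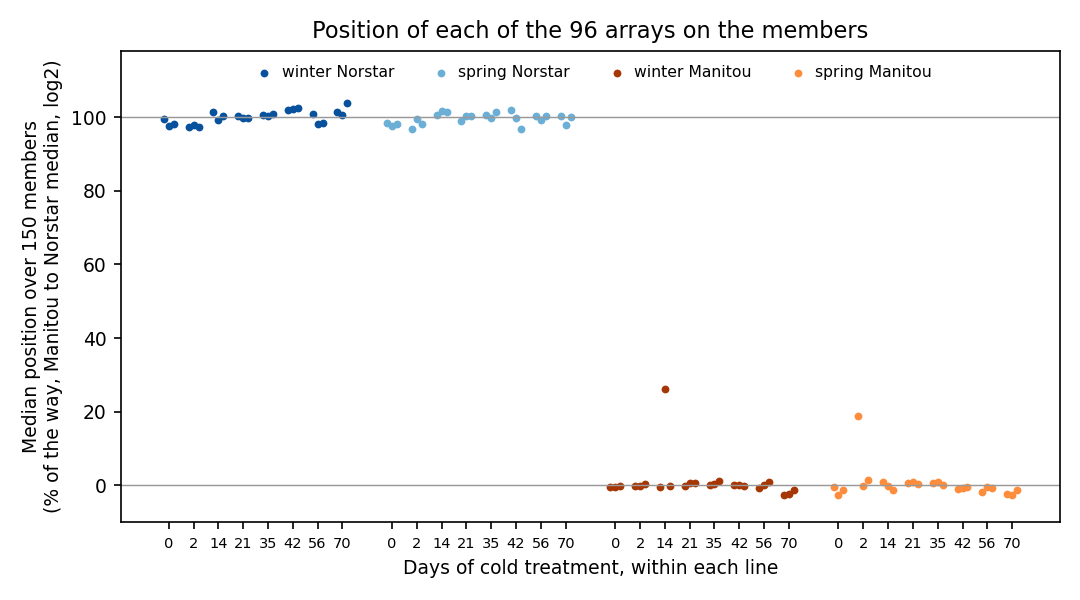
Each point is 1 of the 96 arrays, grouped by line and day on the horizontal axis. The vertical axis is its median position over the 150 members, in percent of the way on the log2 scale between the Manitou median (0) and the Norstar median (100). Of the Manitou arrays, 46 lie within 2.70% of 0, and 1 array of winter Manitou at 14 days (26.1%) and 1 of spring Manitou at 2 days (18.8%) lie above them.

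The members were far apart between the backgrounds. Their mean over 48 Norstar arrays ran from 6.72 to 13.40 (median 8.61), and that over 48 Manitou arrays from 2.99 to 9.34 (median 4.94). On the log2 scale the mean of the 16 differences lay between 2.27 and 7.14 (median 3.57, or 11.9-fold), and the smallest of the 16 between 1.95 and 5.81 (median 2.83, or 7.09-fold). Over all 19149 probe sets the median difference was -0.02. For 144 members every Norstar array was above every Manitou array, against 1.81% of the 19149 probe sets, a count the rule itself sets. Without the 2 arrays that stood apart it was 145.

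In most of the members the Manitou signal was dim. In 60 members all 16 Manitou group means were under 5, and in 36 of these all 16 Norstar group means were 7 or more. Only 15 members had a signal of 7 or more in every Manitou group. Among them was Ta.10329.16.S1_at, from a cluster of histone H4 probe sets, with a mean of 13.40 in Norstar and 9.23 in Manitou. Ta.7378.36.S1_at averaged 12.75 in Norstar and 9.10 in Manitou, and Ta.23366.1.S1_at, described as an F-box protein, 12.38 in Norstar and 9.03 in Manitou. A signal depends on the amount of the RNA and on how well its sequence matches the probes, and these cannot be told apart here.

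**Figure D2:**
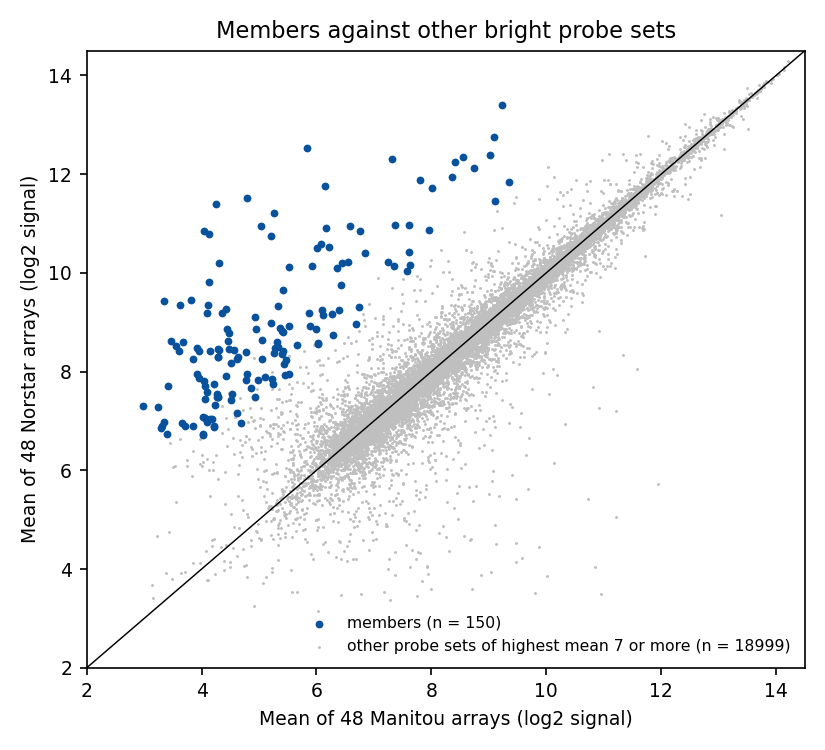
Each point is a probe set with a highest group mean of 7 or more, plotted by its mean over 48 Manitou arrays (horizontal) and 48 Norstar arrays (vertical), in log2 signal. The 150 members (blue) were chosen for their distance above the line of equal signal, and their Norstar means start at 6.72.

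The member with the highest score, Ta.18932.3.S1_at, was nearly flat in Norstar. It ran from 10.54 to 11.17 (median 10.85) over the 48 Norstar arrays and from 3.37 to 7.83 (median 3.90) over the 48 Manitou arrays. Its highest value in Manitou was the array of winter Manitou at 14 days that stood apart, and without the 2 arrays its highest Manitou value was 4.48 and its smallest difference 6.63 in place of 5.81. Ta.1944.1.S1_at ran from 10.99 to 11.96 (median 11.54) in Norstar and from 3.89 to 8.31 (median 4.64) in Manitou. Without the 2 arrays its highest Manitou value was 5.36. Ta.28770.2.S1_at ran from 11.71 to 13.10 (median 12.49) in Norstar and from 5.14 to 9.95 in Manitou, or to 6.07 without the 2 arrays. In both of these the groups did not overlap, which the rule favours, and the highest Manitou values again came from the 2 arrays. None of the 3 has a description in the tables used here.

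The next 7 members by score had smallest differences between 4.74 and 5.25. They were Ta.24985.1.S1_at, TaAffx.7745.1.S1_at, Ta.3242.3.A1_at, Ta.3242.1.A1_at, Ta.888.3.A1_at, Ta.18686.1.A1_at and Ta.9089.1.A1_at. Ta.3242.3.A1_at ran from 9.09 to 9.87 in Norstar and from 2.56 to 6.07 in Manitou (median 3.29). Ta.9089.1.A1_at ran from 10.40 to 12.27 in Norstar and from 5.40 to 9.18 in Manitou. By mean difference, Ta.14145.1.S1_at (7.14), Ta.13165.2.S1_at (6.66) and Ta.18805.1.A1_a_at (5.96) were among the leading 10, in place of Ta.3242.1.A1_at, Ta.888.3.A1_at and Ta.9089.1.A1_at. The members came from 145 clusters of sequences, read from the probe set names, and 4 clusters held more than 1. Cluster Ta.3242 held 3 members, Ta.3242.3.A1_at, Ta.3242.1.A1_at and Ta.3242.1.A1_a_at, and members of 1 cluster may share a transcript.

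The rule had no gap at its edge. The 5 members just inside were Ta.28805.1.S1_at (1.97), Ta.12364.1.S1_at (1.96), Ta.5284.2.S1_at (1.96), Ta.12536.1.S1_at (1.95) and TaAffx.23477.1.S1_at (1.95). The 5 probe sets just outside were Ta.25158.1.S1_at (1.93), TaAffx.12845.1.S1_at (1.93), Ta.13860.1.S1_at (1.92), Ta.5638.1.A1_at (1.91) and Ta.26285.1.S1_at (below 1.91).

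The difference between the backgrounds was of like size in the winter and the spring lines. The mean difference in the winter lines minus that in the spring lines lay between -0.91 and 0.84 (median -0.01), and was above 0 in 72 of the 150 members. Over days, the median difference of the members was 3.53 at 0 days, 3.22 at 2 days, 3.45 at 14 days, 3.50 at 21 days, 3.53 at 35 days, 3.60 at 42 days, 3.54 at 56 days and 3.73 at 70 days. The values at 2 and 14 days include the 2 arrays that stood apart, whose shift towards Norstar makes these differences smaller, so no narrowing is read from them. The range of the 16 differences within a member had a median of 1.16, or 0.99 without the 2 arrays that stood apart. For 68 members the smallest difference fell at winter 14 days or spring 2 days, the groups of the 2 arrays, and for 30 without them. Replicate arrays of a member had a median SD of 0.16 in Norstar and 0.25 in Manitou (n = 3 per group), and of 0.21 in Manitou without the 2 arrays.

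**Figure D3:**
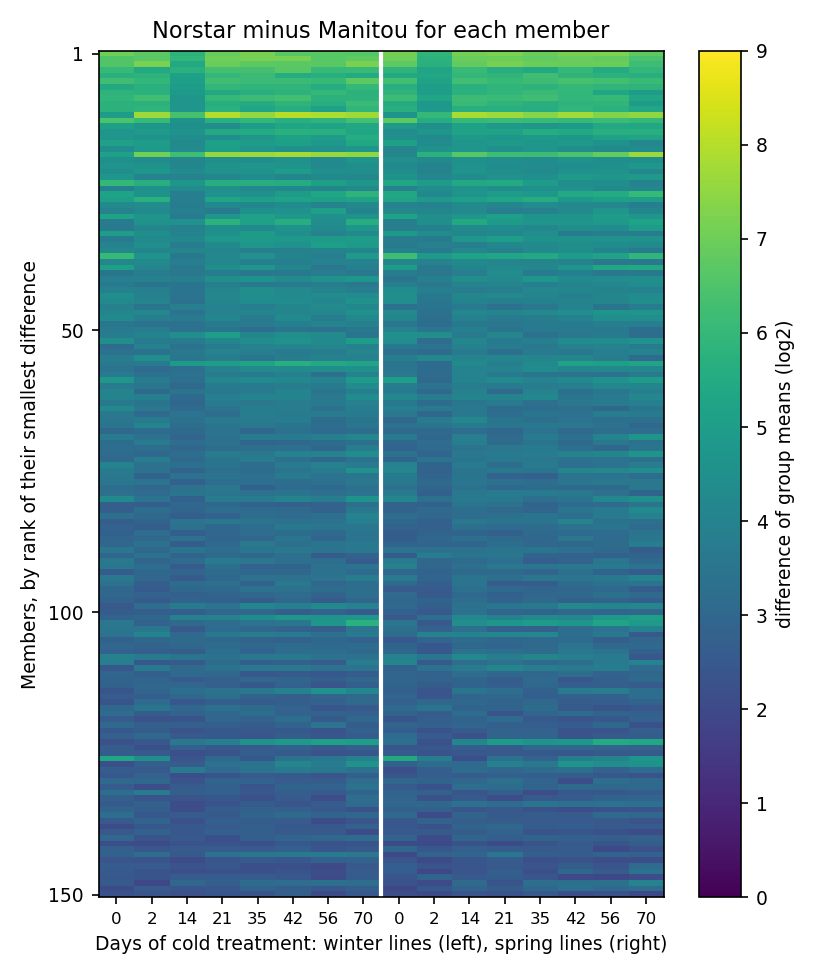
Each row is 1 of the 150 members by rank of its smallest difference, and each column a day of cold treatment, with winter lines left of the white line and spring lines right of it. Colour gives Norstar minus Manitou (log2 difference of means of 3 arrays). The columns of winter 14 days and spring 2 days hold the 2 Manitou arrays that stood apart. In the upper rows these columns are darker than their neighbours. The largest difference (8.02) is in Ta.14145.1.S1_at, which changed with cold. A bright row need not be a member that changed with cold, since the member of highest rank was nearly flat in Norstar.

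Few members could be named. None of the 150 was among the 1273 probe sets with a gene symbol in the platform table, and 12 had a description in the part of the study's annotation sheet held here (1742 probe sets). That sheet lists genes the study selected on these samples for an interaction of genotype and duration, so members that changed with cold are more likely to be described. By the words in those descriptions, 2 members fell under cold and dehydration, 2 under transcription and chromatin, 1 under redox and detoxification and 1 under protein synthesis and turnover. Among annotated probe sets that passed the name and brightness parts of the rule, these groups held 32, 88, 93 and 90, in that order. There were 0 members under defence (59 annotated probe sets), kinase and signalling (84), transport (59), carbohydrate and cell wall (46), photosynthesis (22) and retroelement (13). With only 12 described members, nothing is read from these counts or absences.

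Both cold and dehydration members, Ta.14145.1.S1_at and Ta.13165.2.S1_at, are described by their rice match as late embryogenesis abundant (LEA) group 1 proteins. LEA proteins are very hydrophilic proteins that accumulate in drying seeds and in stressed tissue and are thought to protect other proteins and membranes. At 0 days Ta.14145.1.S1_at was at 8.82 ± 0.72 (SD, n = 3) in winter and 8.48 ± 0.62 in spring Norstar crowns, against 3.87 ± 0.10 in winter and 3.81 ± 0.24 in spring Manitou crowns. By 2 days the Norstar lines were at 11.51 ± 0.25 (winter) and 11.34 ± 0.07 (spring), and at 70 days at 11.73 ± 0.19 and 11.64 ± 0.20. Its Manitou group means lay between 3.81 and 4.50 but for 2 groups. Its winter Manitou arrays at 14 days read 4.58, 4.68 and 8.70 and its spring Manitou arrays at 2 days 3.89, 4.65 and 7.52, and the highest of each 3 was the array that stood apart. Ta.13165.2.S1_at had a like course in Norstar, with 8.77 in the winter and 8.35 in the spring line at 0 days and 11.27 and 10.97 at 2 days, while the Manitou lines read 3.62 (winter) and 4.25 (spring) at 0 days. The difference of Ta.14145.1.S1_at was 4.66 in the spring lines at 0 days, its smallest, and 8.02 in the winter lines at 42 days, its largest.

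The transcription members were a WRKY factor and a subunit of nuclear factor Y. Ta.4678.1.S1_at is described as WRKY4, of the plant WRKY family of transcription factors that bind W-box elements and act in stress and defence. Its 3 arrays at 0 days read 8.91, 8.96 and 11.94 in winter Norstar and 9.32, 9.36 and 11.56 in spring Norstar, and in both lines the high one was replicate 2. At 14 days it was at 6.73 ± 0.10 in winter Norstar and 6.84 ± 0.34 in spring Norstar. All Manitou arrays lay between 4.07 and 4.91, so the difference was smallest at 14 days (2.20) and largest at 0 days (5.45). In its cluster, Norstar minus Manitou was -0.23 in Ta.4678.2.S1_at and -0.87 in Ta.4678.3.S1_x_at. Ta.4678.1.S1_x_at, of the same target as the member, differed by 3.51. Ta.27041.1.S1_at, whose rice match is a subunit of nuclear factor Y, a complex that binds CCAAT boxes, ran from 5.61 to 8.38 (median 7.46) in Norstar and from 2.89 to 3.58 (median 3.22) in Manitou. The other probe set of its target, Ta.27041.1.S1_s_at, differed by only 0.50.

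**Figure D4:**
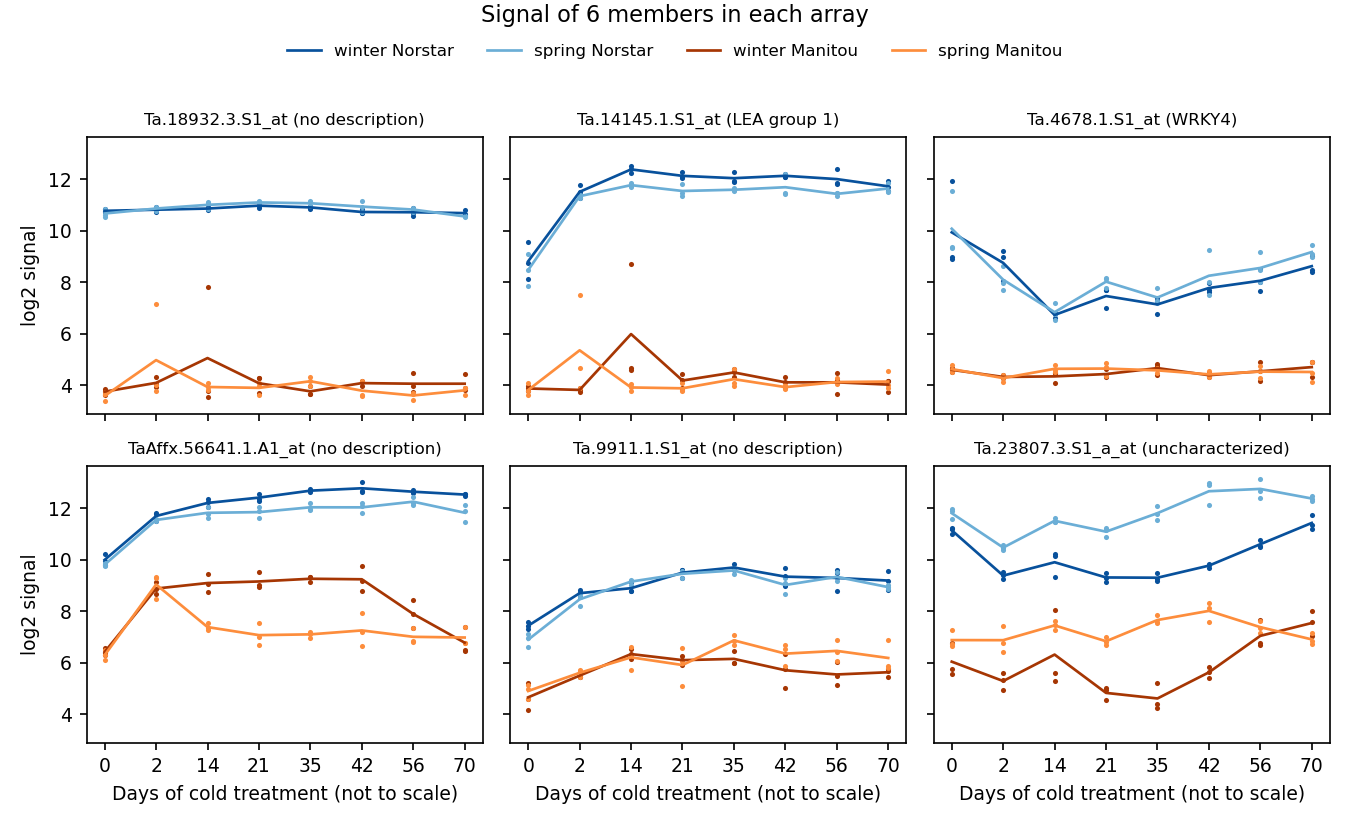
Log2 signal against days of cold treatment for 6 members; points are single arrays, lines join means of 3 arrays, and the day axis is not to scale. Ta.18932.3.S1_at is flat, Ta.14145.1.S1_at (LEA group 1) and Ta.9911.1.S1_at are higher after cold, and Ta.4678.1.S1_at (WRKY4) is lower after cold in Norstar, while Ta.23807.3.S1_a_at is lower in the winter than in the spring line of each background on most days; the single high points of winter Manitou at 14 days (8.70) and spring Manitou at 2 days (7.52) in the LEA panel are the arrays that stood apart.

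Among the enzymes, Ta.4041.3.A1_at is matched to the cytochrome P450 CYP86A1, a fatty acid hydroxylase of suberin synthesis in Arabidopsis. It ran from 6.40 to 9.31 (median 7.24) in Norstar and from 3.76 to 5.71 (median 4.17) in Manitou. Ta.11022.1.S1_a_at, an O-methyltransferase, ran from 8.29 to 11.14 (median 10.42) in Norstar and from 4.82 to 6.73 (median 5.48) in Manitou. Ta.438.3.S1_at, a putative bifunctional nuclease, which would cut both DNA and RNA, ran from 7.38 to 9.26 in Norstar and from 3.88 to 5.68 in Manitou. Ta.22167.1.A1_at, beta-galactosidase 4, of a family that removes galactose from cell wall polymers, ran from 7.31 to 9.40 in Norstar and from 4.41 to 6.16 in Manitou. None of the 4 overlapped between the backgrounds, which the rule favours (1.81% of the 19149 probe sets did not overlap, with Norstar above). Other probe sets of their clusters differed less or the other way. Norstar minus Manitou was 0.30 in Ta.4041.1.S1_at, also matched to CYP86A1, and 1.09 in Ta.11022.2.S1_at. It was -0.87 in Ta.438.1.S1_a_at and -0.998 in Ta.438.2.S1_x_at. Ta.11022.1.S1_x_at, of the same target as its member, differed by 4.63.

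The remaining described members were a protein of the ubiquitin system, a calcium-binding protein and 2 of unknown function. The F-box probe set Ta.23366.1.S1_at, of the family that selects proteins for ubiquitination, ran from 11.37 to 13.24 in Norstar and from 7.83 to 9.95 in Manitou. In its cluster, Norstar minus Manitou was -0.30 in Ta.23366.2.S1_at and 0.03 in Ta.23366.3.A1_at. Ta.30908.1.S1_at, an EF hand protein, of a family that binds calcium, ran from 5.33 to 8.33 in Norstar and from 3.04 to 3.87 in Manitou, where it varied by only 0.19 over day means. The uncharacterized Ta.11562.1.A1_at ran from 8.36 to 9.36 in Norstar and from 4.09 to 6.47 in Manitou, and its range over day means was wider in Manitou (1.78) than in Norstar (0.61).

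The comparisons of days and habits were averaged over both backgrounds. They are not the contrast the rule used, but they are not free of it: the rule asked for a difference on each of the 8 days, and where the Manitou signal is dim the average moves with the Norstar signal. Shares of members called are therefore given beside those of all probe sets as a description, and nothing is read from their distance. Signals were compared between days with limma on 32 group means, with p-values adjusted by Benjamini-Hochberg over 32702 probe sets, and called at an adjusted p under 0.01. Over the 8 days, 94 of the 150 members (62.7%) changed, against 88.2% of all probe sets tested and 96.1% of the 19149 that passed the brightness limit of the rule, and 107 members without the 2 arrays. The rule left out genes whose difference closed on any day, which bears on this share. At 2 days against 0 days, also asking for 2-fold or more, 4 members rose and 3 fell, against 2.19% of all probe sets that rose and 3.06% that fell (3.47% and 4.47% of the 19149). Without the 2 arrays 4 rose and 4 fell, with Ta.23807.3.S1_a_at added to those that fell. At 14 to 42 days against 0 days, 4 rose and 2 fell, against 1.64% and 2.23% of all probe sets (2.63% and 3.08% of the 19149). Without the 2 arrays the counts were also 4 and 2. At 56 and 70 days against 14 to 42 days, 0 members rose and 0 fell by 2-fold (limma), against 1.08% and 0.468% of all probe sets (1.72% and 0.773% of the 19149). Without the 2 arrays 1 member passed there, Ta.23807.3.S1_a_at (1.02), and without replicate 1 of every group 2 passed. At any size, 77 members had an unadjusted p under 0.05 in this comparison (limma). The share of all probe sets at that limit was not computed, so nothing is read from the 77. The median change of the members at 2 days was 0.10, against 0.05 over all probe sets tested, and 0.05 without the 2 arrays. With the 2 arrays, 8 members in all passed in at least 1 of the 2 early comparisons and 5 in both.

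TaAffx.56641.1.A1_at, with no description, changed most with cold. In Norstar it was at 9.99 ± 0.22 and 9.81 ± 0.06 (SD, n = 3) in the winter and spring line at 0 days, 11.70 ± 0.16 and 11.54 ± 0.03 at 2 days and 12.77 ± 0.21 and 12.03 ± 0.20 at 42 days. In Manitou it was at 6.42 ± 0.14 and 6.29 ± 0.19 in the winter and spring line at 0 days, 8.88 ± 0.24 and 9.04 ± 0.48 at 2 days and 9.24 ± 0.50 and 7.25 ± 0.63 at 42 days. Over both backgrounds it rose by 2.16 ± 0.23 (95% interval) at 2 days (limma adjusted p = 8.11e-27) and by 2.08 ± 0.18 at 14 to 42 days. Its Norstar arrays started at 9.75 and its highest Manitou array was at 9.77, so the backgrounds overlapped across days but not within a day.

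The LEA member Ta.14145.1.S1_at rose by 1.76 ± 0.47 at 2 days (limma adjusted p = 1.13e-09) and by 1.88 ± 0.37 at 14 to 42 days, averaged over all 4 lines. Without the 2 arrays that stood apart it rose by 1.49 at 2 days and 1.80 at 14 to 42 days. Ta.13165.2.S1_at rose by 1.65 ± 0.38 at 2 days and 1.39 ± 0.30 at 14 to 42 days, or 1.46 and 1.32 without the 2 arrays. Ta.9911.1.S1_at, with no description, rose by 1.09 ± 0.27 at 2 days and 1.79 ± 0.21 at 14 to 42 days. Its day means spanned 2.47 in Norstar and 1.73 in Manitou.

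At 0 days, the baseline of these comparisons, arrays with the same replicate number deviated together across lines (18 pairs, r of 0.31 to 0.75). Of the members that fell, the P450 Ta.4041.3.A1_at changed most at 2 days in the average of the 4 lines, by -1.52 ± 0.22 (limma adjusted p = 8.45e-20). At 14 to 42 days its change was -1.32 ± 0.18. TaAffx.14498.1.S1_at, with no description, fell by 1.15 at 2 days. Ta.18134.1.S1_at, also without one, fell by 1.09 at 2 days, but its 0-day Manitou arrays of replicate 2 read 9.60 in winter Manitou and 10.10 in spring Manitou, against 7.19 to 7.62 in the other 4, and without replicate 2 the change was -0.71, under 2-fold. WRKY4 (Ta.4678.1.S1_at) fell by 1.33 ± 0.31 at 14 to 42 days, and without replicate 2 the change was -0.94, also under 2-fold.

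Habit was compared in the same way. Averaged over both backgrounds and 8 days, 13 members were higher and 11 lower in winter than in spring lines at an adjusted p under 0.01 (limma), against 12.7% and 12.2% of all probe sets tested and 16.8% and 16.9% of the 19149. These are 8.67% and 7.33% of the members. Without the 2 arrays 19 were higher and 13 lower, and without replicate 2 of every group 13 members passed in all. At 2-fold or more, 0 members were higher and 1 was lower, against 0.0764% and 0.171% of all probe sets. The members higher in winter lines by most were TaAffx.56641.1.A1_at (0.77 ± 0.12), Ta.3100.2.S1_at (0.39 ± 0.09) and the LEA member Ta.13165.2.S1_at (0.37 ± 0.19). Those lower were Ta.23807.3.S1_a_at (-1.52 ± 0.16), Ta.28805.1.S1_at (-0.48 ± 0.09) and Ta.18134.1.S1_at (-0.39 ± 0.17). The calls of Ta.13165.2.S1_at (limma adjusted p = 0.0491 without replicate 2 and 0.0226 without replicate 3) and Ta.18134.1.S1_at (limma adjusted p = 0.0197 without replicate 1) were lost when a replicate was left out.

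Ta.23807.3.S1_a_at, an uncharacterized protein fragment, was the member with the largest habit difference and the smallest p for habit by duration (limma F = 14.98, adjusted p = 1.18e-09). Over 14 to 42 days its group means lay between 9.30 and 9.90 in the winter and between 11.09 and 12.66 in the spring line of Norstar, and between 4.61 and 6.31 in the winter and between 6.83 and 8.01 in the spring line of Manitou. At 70 days the Norstar lines were at 11.43 ± 0.27 (winter) and 12.38 ± 0.09 (spring) (SD, n = 3), and the Manitou lines at 7.54 ± 0.49 (winter) and 6.90 ± 0.22 (spring). The gap between winter and spring lines was thus wide in the middle of the treatment and narrow or turned round at its end.

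Habit by duration passed in 15 of the 150 members (10%), against 14.4% of all probe sets tested and 21.4% of the 19149, and in 19 without the 2 arrays. Leaving out replicate 1, 2 or 3 of every group left 3, 4 or 5 members. After Ta.23807.3.S1_a_at the smallest adjusted p were those of TaAffx.56641.1.A1_at (F = 12.80, limma adjusted p = 1.54e-08) and Ta.3100.2.S1_at (F = 5.63, limma adjusted p = 0.000502), the last of which was lost without replicate 1 (limma adjusted p = 0.0571) or 2 (limma adjusted p = 0.0404). In Ta.3100.2.S1_at, of a cluster with a ribosomal protein L3 probe set, the winter and spring lines were alike at 0 days, with 12.01 (winter) and 11.85 (spring) in Norstar and 9.65 (winter) and 9.47 (spring) in Manitou. At 42 days they read 11.76 and 10.82 in winter and spring Norstar and 9.33 and 8.52 in winter and spring Manitou. The first cold response (2 days against 0 days) differed with habit in 0 members, against 0% of all probe sets in which it was higher and 0.00612% in which it was lower in winter lines (limma), while 9 members had an unadjusted p under 0.05. The share of all probe sets at that limit was not computed, so nothing is read from the 9. The winter minus spring difference of this response was below 0 in 132 of the members, with a median of -0.19, and in 96 with a median of -0.08 without the 2 arrays.

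The late change, 56 and 70 days against 14 to 42 days, differed with habit in 10 members, 5 more positive and 5 more negative in winter lines (limma), against 8.82% and 9.05% of all probe sets and 12.9% and 13% of the 19149. Without the 2 arrays it differed in 19 members, 13 more positive and 6 more negative, and all 10 were among them, while leaving out any 1 replicate number left 4. In Ta.23807.3.S1_a_at the winter minus spring difference of the late change was 1.47 ± 0.40 and in TaAffx.56641.1.A1_at it was -0.84 ± 0.28. In winter Manitou the signal of TaAffx.56641.1.A1_at was 9.24 at 42 days, 7.89 at 56 days and 6.78 at 70 days, and in winter Norstar 12.77, 12.64 and 12.53.

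The members' clusters hold 219 other probe sets, in 60 clusters, that the rule did not choose. A cluster is read from the name up to its second full stop, and groups expressed sequences of like sequence. Of the 219, 45 were higher (20.5%) and 2 lower (0.913%) in Norstar by limma, fitted and adjusted over all 61179 probe sets and asking for 2-fold as well as an adjusted p under 0.01, against 1.31% and 0.979% of all probe sets. Their median difference was 0.13, against -0.01 over all probe sets. The split below was made after the values were seen. Of 42 probe sets with the same target name as a member, 28 were higher in Norstar. All 28 had names ending in _x_at or _s_at, and such sets may share probes with the member, so they are not independent of it. Of 177 for other targets of the cluster, 17 were higher and 2 lower, and of the 90 of these with neither suffix, 6 were higher and 2 lower.

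The 5 largest differences were in Ta.30399.1.A1_s_at (6.16 ± 0.17), TaAffx.7745.1.S1_x_at (4.99 ± 0.13), Ta.11022.1.S1_x_at (4.63 ± 0.13), Ta.9623.1.S1_x_at (4.22 ± 0.11) and Ta.6734.1.S1_x_at (4.21 ± 0.09), all of the same target name as a member. The 5 lowest were Ta.23957.1.S1_at (-2.11 ± 0.17), Ta.12276.1.S1_at (-1.09 ± 0.05), Ta.438.2.S1_x_at (just under 2-fold), Ta.4678.3.S1_x_at (-0.87 ± 0.26) and Ta.438.1.S1_a_at (-0.87 ± 0.10), of which the first 2 passed the 2-fold threshold. Ta.23957.1.S1_at, a nucleotide pyrophosphatase, averaged 7.65 in Norstar and 9.76 in Manitou, while the member of its cluster, Ta.23957.2.S1_at, averaged 12.24 in Norstar and 8.41 in Manitou. In the LEA cluster, Ta.13165.1.S1_at averaged 11.79 in Norstar and 10.70 in Manitou, a difference of 1.09 ± 0.10, against 6.66 for the member Ta.13165.2.S1_at. Ta.13165.3.S1_a_at, with the same rice match, averaged 11.49 in Norstar and 11.58 in Manitou. In the histone H4 cluster Ta.10329, 4 of 37 other probe sets were higher in Norstar, with a median difference of 0.16.

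In 7 members another probe set with neither suffix carried the same target name, and it did not follow the member. Ta.6828.1.S1_at averaged 9.19 in Norstar and 4.10 in Manitou, while Ta.6828.1.S1_a_at averaged 11.16 in Norstar and 11.44 in Manitou. Ta.5022.1.A1_at averaged 10.23 in Norstar and 7.25 in Manitou, and Ta.5022.1.A1_a_at 10.29 in Norstar and 10.35 in Manitou. Over the 7, the members' mean differences lay between 2.54 and 5.10, and those of the other probe sets between -0.27 and 0.27. Of these other probe sets, Ta.21881.2.S1_at was dim in both backgrounds (4.81 in Norstar and 4.54 in Manitou), so its small difference says little. Levels of different probe sets are not comparable, since their probes bind unequally, so only the differences within each are set side by side.

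**Figure D5:**
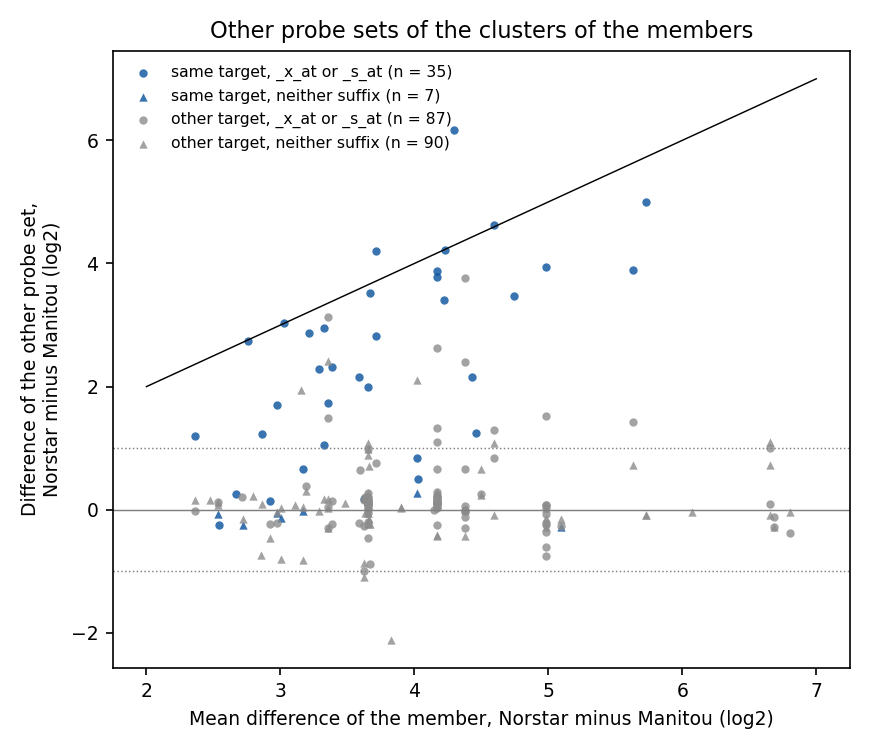
Norstar minus Manitou difference (log2) of each of the 219 other probe sets of the members' clusters (vertical) against the mean difference of the member of its cluster, the largest where there are several (horizontal). Blue marks the same target name as a member, circles names ending in _x_at or _s_at and triangles other names; the diagonal line marks equal differences and dotted lines 2-fold. The 7 blue triangles lie between -0.27 and 0.27, and most blue circles lie above the 2-fold line.

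The probe set names of the members were set beside those of all 19149 probe sets, with no test. A name with A1 was carried by 45 members (30%), against 21.2% of the 19149, and a name beginning with TaAffx by 27 (18%), against 29.3%. Suffix _a_at, which marks probes that may bind several transcripts of the same gene, was carried by 14 (9.33%), against 15%, and 83 (55.3%) were the only probe set of their cluster, against 55.5%.

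None of 12 strongly cold-induced genes that the study chose on these samples was a member. The members are only 150 of 19149 probe sets, so a list of 12 could easily hold none of them. The study listed these genes for a large change with cold and an interaction of genotype and duration. A rule on the smallest of 16 differences works against genes whose difference varies over days. Nothing is therefore read from this absence. The smallest difference of the 12 genes between backgrounds lay between -1.34 and 0.59. Their largest reached 5.77, in the cold acclimation gene WCOR726, whose smallest difference was 0.53. In 7 of them all 16 differences were above 0. In the other 5 at least 1 difference was below 0, and the lowest, -1.34, was in the dehydrin WZY1-1.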

How the data were processed

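RNA from 96 pools of wheat crowns was hybridized to Affymetrix Wheat GeneChips. The authors extracted the scans with MAS 5.0 and summarized and normalized them by RMA (named in the submitters' processing notes) in GeneSpring, whose version is not given in the sources used here, and the deposited values are log2 signals of 61290 probe sets. RMA makes the distributions of all arrays alike, so values are relative to the other genes of an array. One label of a sample set gives 28 days where the duration label and the methods give 21, and 21 was used.

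The members and lists were chosen with earlier results of these data known. Groups were taken from the labels. Contrasts other than the one the rule used were fitted with limma 3.58.1 (R 4.3.3) on 32 group means to 32702 probe sets (no control, _x_at or _s_at names, a group mean of 5 or more), with p-values adjusted by Benjamini-Hochberg and a threshold of 0.01, and of 2-fold for the comparisons of days. Other probe sets of the members' clusters were fitted over 61179 probe sets. Intervals are 95%. Named genes were the leading 10 members by smallest and by mean difference, the 3 called members that changed most in each direction for days and habit, the 3 with the smallest p for habit by duration, the members with a description, the 5 on each side of the limit and the 5 highest and lowest other probe sets of the clusters; others named were chosen after their values were seen. The scripts were tested on simulated data. Members were described and figures drawn with Python 3.11.15, pandas 2.3.3 and matplotlib 3.10.9. Alternatives were other brightness limits, scores and filters, replicate and harvest blocks, array weights and leaving out each replicate; leaving out the 2 Manitou arrays that stood apart (limit of 10% of the way to Norstar) and splitting the clusters by target name were chosen after seeing the data. The number of arrays limits the precision. No sequence of a probe or gene was used here.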

Additional observations from a re-analysis of the deposited data

Results flagged for a closer look

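The change at 56 and 70 days against 14 to 42 days differed between winter and spring lines in 10 members by the test of that difference itself (limma, averaged over both backgrounds, winter minus spring on the log2 scale). It was more positive in winter lines in 3.33% of the members and more negative in 3.33%. The shares were 8.82% and 9.05% of all probe sets tested, and 12.9% and 13% of the 19149. Leaving out any 1 replicate number left 4 members called. The difference was 1.47 in Ta.23807.3.S1_a_at (limma adjusted p = 2.03e-08), 0.51 in Ta.7378.36.S1_at (limma adjusted p = 0.00274), 0.42 in Ta.27678.1.S1_at, 0.40 in Ta.10329.11.A1_at and 0.35 in Ta.21536.1.S1_at. It was -0.84 in TaAffx.56641.1.A1_at (limma adjusted p = 3.14e-06), -0.35 in Ta.9584.1.S1_at, -0.34 in Ta.2911.1.A1_a_at, -0.33 in Ta.27795.1.S1_at and -0.31 in Ta.25696.1.S1_at. All but Ta.23807.3.S1_a_at were under 2-fold. Of the 10, Ta.7378.36.S1_at and Ta.10329.11.A1_at belong to clusters of many probe sets, whose other members may share a transcript.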

How the results depend on the processing

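Under the alternatives, 116 values of the counts stayed within 1.5 times and 15 did not. Of the values of named genes, 511 were counted as kept, 8 lost the call, 2 gained it and 0 reversed. The 511 include the mean Norstar minus Manitou differences of the named members, which the rule chose to be large. Those have no threshold and were counted as kept where they moved by less than the combined replicate SD of both backgrounds. The 511 and the 0 reversed are therefore partly set by the rule, and nothing is read from them. The members kept were 141 to 144 when a replicate was left out, 146 with a brightness limit of 6, 127 with one of 8, 123 with _x_at and _s_at names kept, 135 ranked by mean difference and 147 without the 2 Manitou arrays that stood apart. Members called at 56 and 70 days against 14 to 42 days were 0 to 2 with a replicate left out and 1 without the 2 arrays, against 0. Those called for habit were 13 to 19 with a replicate left out, against 24, and those called for habit by duration 3 to 5, against 15. Members whose late change differed with habit were 4 with any replicate left out and 19 without the 2 arrays, against 10. Fewer arrays give a test less to go on; beyond that the cause was not tested. Other probe sets of the clusters higher in Norstar were 6 without _x_at and _s_at names, 29 in clusters of at most 5 probe sets, 28 for the same target name and 17 for other targets, against 45, and those lower were 0 for the same target name, against 2; these settings count fewer probe sets.

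The labels give replicate numbers in every group. Same-day arrays with the same number deviated together with a mean r of 0.21 over 144 pairs (lowest -0.12), against -0.10 for same-day arrays with other numbers. At 0 days all 18 pairs did so (r of 0.31 to 0.75, mean 0.54), which is a hint from the data of an effect shared by arrays of a day and number, in the baseline of each comparison with 0 days. On other days the mean was 0.17, and across days 0.03. Since the labels do not say what a number marks and not every pair correlated, the numbers were not taken to pair the samples. With the replicate number as a block, 7 members were called at 2 days, 6 at 14 to 42 days, 0 for the late change, 25 for habit, 10 for the late change by habit, 92 for duration and 15 for habit by duration, and 45 cluster probe sets were higher and 2 lower, all within 1.5 times of the values without it. With arrays of 1 day and number as a random block (consensus correlation 0.158), the members called were 7, 6, 0, 29, 10, 74 and 19 in the same order, also within 1.5 times, and the named changes at 2 days and 14 to 42 days kept their calls.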
